A study of Mus musculus with 8 samples.

Results

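The nuclear genes for the subunits of the oxidative phosphorylation complexes were followed in the livers of WT and miR-33 HKO mice. The members were chosen by gene symbol alone, by the prefixes Nduf followed by a, b, c, s or v and a digit, Sdh followed by a, b, c or d, Uqcr, Cox followed by a digit from 4 to 8, and Atp5. By this rule 87 of the 17810 listed genes were taken, of which 41 were assigned to complex I, 4 to complex II, 8 to complex III, 17 to complex IV and 17 to complex V. RefSeq annotates 84 of them as protein coding and 3 as transcribed pseudogenes (Ndufa11b, Ndufs5-ps and Cox7c-ps1). Liver RNA was sequenced from 4 WT and 4 HKO male littermates, all 5 months old, that had been on CD-HFD, a high-fat diet without choline, for 3 months since the age of 8 weeks. HKO mice carry miR-33 loxP/loxP alleles and Cre recombinase under the albumin promoter, which removes miR-33 from hepatocytes. The paper leaves open whether this Cre also affects miR-33 in cholangiocytes. Whether the WT littermates carried loxP alleles is not given in the sources used here. By its title each library is 1 liver of 1 mouse.

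Oxidative phosphorylation takes place in the inner mitochondrial membrane. Complexes I and II pass electrons from NADH and succinate to ubiquinone, complex III passes them on to cytochrome c, complex IV hands them to oxygen, and complex V uses the resulting proton gradient to make ATP. Most subunits are encoded in the nucleus and imported, while a small set is encoded by mitochondrial DNA. Transcription of the nuclear genes is known to depend on the factors NRF1, the ETS protein GABP, YY1 and the estrogen-related receptors, with the coactivator PGC1α (Ppargc1a). The deposited table holds no gene of the mitochondrial chromosome, so only the nuclear share of the complexes was analysed here. The comparison asks whether the mRNAs of the respiratory complexes differed between genotypes at the stage of simple steatosis, in livers in which loss of miR-33 is studied for its effect on mitochondrial metabolism.

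The mature strand that the HKO mice lack in hepatocytes is shown first because its seed gives the words searched in the members' 3′UTRs. RefSeq places mmu-miR-33-5p at chr15:82198127-82198147 of GRCm38.p6 on the plus strand, within the host gene Srebf2, and bases 2 to 8 (the seed) are in capitals. The word complementary to the seed, CAATGCA, occurred in the longest annotated 3′UTR (GENCODE vM21) of 8.34% of 15819 listed genes and in 0 of 82 members. The word complementary to bases 2 to 7 followed by A, AATGCAA, occurred in 12.0% of these genes and in 2 of 82 members (2.44%), Cox6c and Uqcr10, whose matches are shown with the word in capitals. The members' 3′UTRs are short, with a median of 268 bases against 1263 over all genes. Per 10 kb of 3′UTR, AATGCAA occurred 0.484 times in members and 0.820 times over all genes, and CAATGCA 0 and 0.532 times. As a check of the search, the 3′UTR of Abca1, a known target of miR-33, held 3 matches to CAATGCA. The words share 6 letters, so their matches can overlap. A match of this kind is a description of letters and not a site shown to act.
mmu-miR-33-5p: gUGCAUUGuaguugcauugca
Cox6c 3′UTR, from 1 base after the stop codon: tttcagAATGCAAagaattctttggattgc
Uqcr10 3′UTR, near its end: gtcagcaaataAATGCAAagtgctcatgag

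Neither gene with a match was called (adjusted p of 0.864 for Cox6c and 0.828 for Uqcr10 in edgeR). Cox6c, a small subunit of complex IV on chromosome 15, stood at 162 ± 22 CPM in the WT livers and 156 ± 13.9 in HKO livers (SD, n = 4), and Uqcr10, a small subunit of complex III on chromosome 11, at 64.6 ± 6.42 and 62.3 ± 5.01 CPM. CPM are counts scaled to a common library total, with TMM factors. Their log2 fold changes of HKO against WT were -0.05 for both, with 95% intervals from -0.28 to 0.19 for Cox6c and from -0.25 to 0.15 for Uqcr10.

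Promoters are shown for 4 members in which letters bound by the known regulators occur together, or whose protein belongs to the antibody cocktail the study used. The window is 250 bases before to 50 bases after the RefSeq start site (GRCm38.p6), read 5′ to 3′ on the strand of the gene, and the matched letters are in capitals. Sdhb encodes the iron-sulfur subunit of complex II and lies on chromosome 4 (window chr4:140961021-140961320, plus strand). It holds the NRF1 core as its reverse complement 54 bases before the start and the ETS core 6 bases after it. The window of Uqcr11 (chr10:80406772-80407071, minus strand), a small subunit of complex III, holds the same pair 4 and 66 bases before the start. The window of Ndufb8 (chr19:44555393-44555692, minus strand), an accessory subunit of complex I, holds the YY1 word 38 bases after the start. The window of Sdhd (chr9:50603800-50604099, minus strand), a membrane anchor of complex II, holds the ETS core 46 bases before and the estrogen-related receptor word 36 bases after the start.
Sdhb: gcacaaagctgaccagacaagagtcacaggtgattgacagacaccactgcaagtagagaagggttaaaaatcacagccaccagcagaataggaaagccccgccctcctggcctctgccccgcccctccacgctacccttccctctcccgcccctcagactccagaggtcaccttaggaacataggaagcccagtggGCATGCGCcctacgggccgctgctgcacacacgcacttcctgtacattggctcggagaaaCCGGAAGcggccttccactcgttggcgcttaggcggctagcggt
Uqcr11: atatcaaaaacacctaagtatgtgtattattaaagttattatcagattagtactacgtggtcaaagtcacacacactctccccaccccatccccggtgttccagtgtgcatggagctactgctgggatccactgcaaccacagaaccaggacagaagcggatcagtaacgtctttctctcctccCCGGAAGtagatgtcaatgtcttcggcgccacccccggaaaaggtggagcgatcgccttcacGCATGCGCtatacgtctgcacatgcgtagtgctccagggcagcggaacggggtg
Ndufb8: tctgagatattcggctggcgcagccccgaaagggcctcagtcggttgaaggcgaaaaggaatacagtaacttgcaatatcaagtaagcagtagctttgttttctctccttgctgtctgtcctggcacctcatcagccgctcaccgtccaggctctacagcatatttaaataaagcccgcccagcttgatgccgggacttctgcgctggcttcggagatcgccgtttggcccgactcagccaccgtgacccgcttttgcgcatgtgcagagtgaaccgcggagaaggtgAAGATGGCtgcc
Sdhd: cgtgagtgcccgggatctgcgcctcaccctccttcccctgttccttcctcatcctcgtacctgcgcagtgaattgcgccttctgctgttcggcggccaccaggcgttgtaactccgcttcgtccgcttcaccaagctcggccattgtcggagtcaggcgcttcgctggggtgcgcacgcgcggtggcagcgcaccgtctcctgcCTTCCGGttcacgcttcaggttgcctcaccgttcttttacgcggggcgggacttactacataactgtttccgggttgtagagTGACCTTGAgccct

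RefSeq windows were matched to 68 members by symbol, with 73 windows in all, and to 17367 windows of listed genes. On both strands, the NRF1 core GCGCATGC occurred in 10 member windows (13.7%) and in 4.21% of all windows. The YY1 word AAGATGGC occurred in 10 (13.7%) and in 3.57% of all windows, and since these letters include ATG they can also be a start codon. The ETS core CCGGAAG occurred in 17 (23.3%) against 14.2%, and the estrogen-related receptor word TCAAGGTCA in 2 (2.74%) against 0.299%. GGGCGG, the core bound by SP1, occurred in 28 member windows (38.4%) against 55%, and CCAAT in 30 (41.1%) against 37.4%. The ETS core ends and the YY1 word begins with AAG, so matches to these can overlap. Both NRF1 and ETS letters occurred in 5 members, Atp5k, Atp5l, Cox6a1, Sdhb and Uqcr11. The 10 members with the NRF1 core had a median log2 fold change of 0.01 (range -0.14 to 0.17), and the 56 tested members with a window and no such core had a median of -0.03. These shares describe letters in a fixed window and were not tested.

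Of the 87 members, 82 passed the filter on low counts and were tested. The tests used edgeR over 12395 genes, and a gene was called at an adjusted p under 0.05. No member was called lower or higher in HKO livers by edgeR, where 3.44% of all tested genes (426) were called lower and 1.71% (212) higher. With total count scaling in place of TMM, 622 genes were called lower and 118 higher, among them 1 member, Ndufa10. DESeq2 and limma-voom also called 0 of 82 members in either direction, against 5.07% lower and 3.11% higher of all genes with DESeq2 and 3.25% lower and 1.61% higher with limma-voom. At an unadjusted p under 0.05 in edgeR 2 members were lower and 0 higher, where 10.6% of all tested genes were lower and 8.99% higher. The genotypes did not overlap for the same 2 members, both lower in HKO livers, and for 0 members higher, while 7.19% of all genes were lower and 5.34% higher without overlap. The shares of members at the unadjusted threshold and without overlap were thus below those over all genes in both directions. The 82 members are not independent of each other. WT replicate 3 was the lowest WT liver for 72 of them and HKO replicate 1 the lowest HKO liver for 73.

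The differences between genotypes were small for nearly every subunit gene. The median log2 fold change over the 82 members was -0.04, with an interquartile range from -0.08 to 0.02, and over all tested genes 0.01, from -0.17 to 0.16. Below 0 were 52 members and above 0 were 30, and in all tested genes 5995 and 6400. This split moved with single livers. Without WT replicate 3 the median was -0.10, with 67 of 81 tested members below 0, without HKO replicate 1 it was 0.02 with 33 of 81, and without both -0.05 with 56 of 81. The medians were -0.02 in complex I, -0.07 in complex II, -0.06 in complex III, -0.03 in complex IV and -0.04 in complex V. The median standard error of a member was 0.11, against 0.14 over all genes. The 95% interval of the difference lay within a 1.5-fold change either way for 79 of 82 members (96.3%) and for 58.8% of all tested genes. The 3 members with wider intervals were Ndufs5, Cox7a1 and Ndufa4l2, all with few counts. Within a 1.25-fold change lay the intervals of 48 members (58.5%), against 21.3% of all genes. Members also had a higher level, with a median of 163 TPM (counts per transcript length) against 10.6 TPM over all tested genes. The part of this level in the narrower intervals was not tested. A missed threshold does not show equal levels, but for these 79 genes a change of more than 1.5-fold lay outside the interval.

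**Figure D1:**
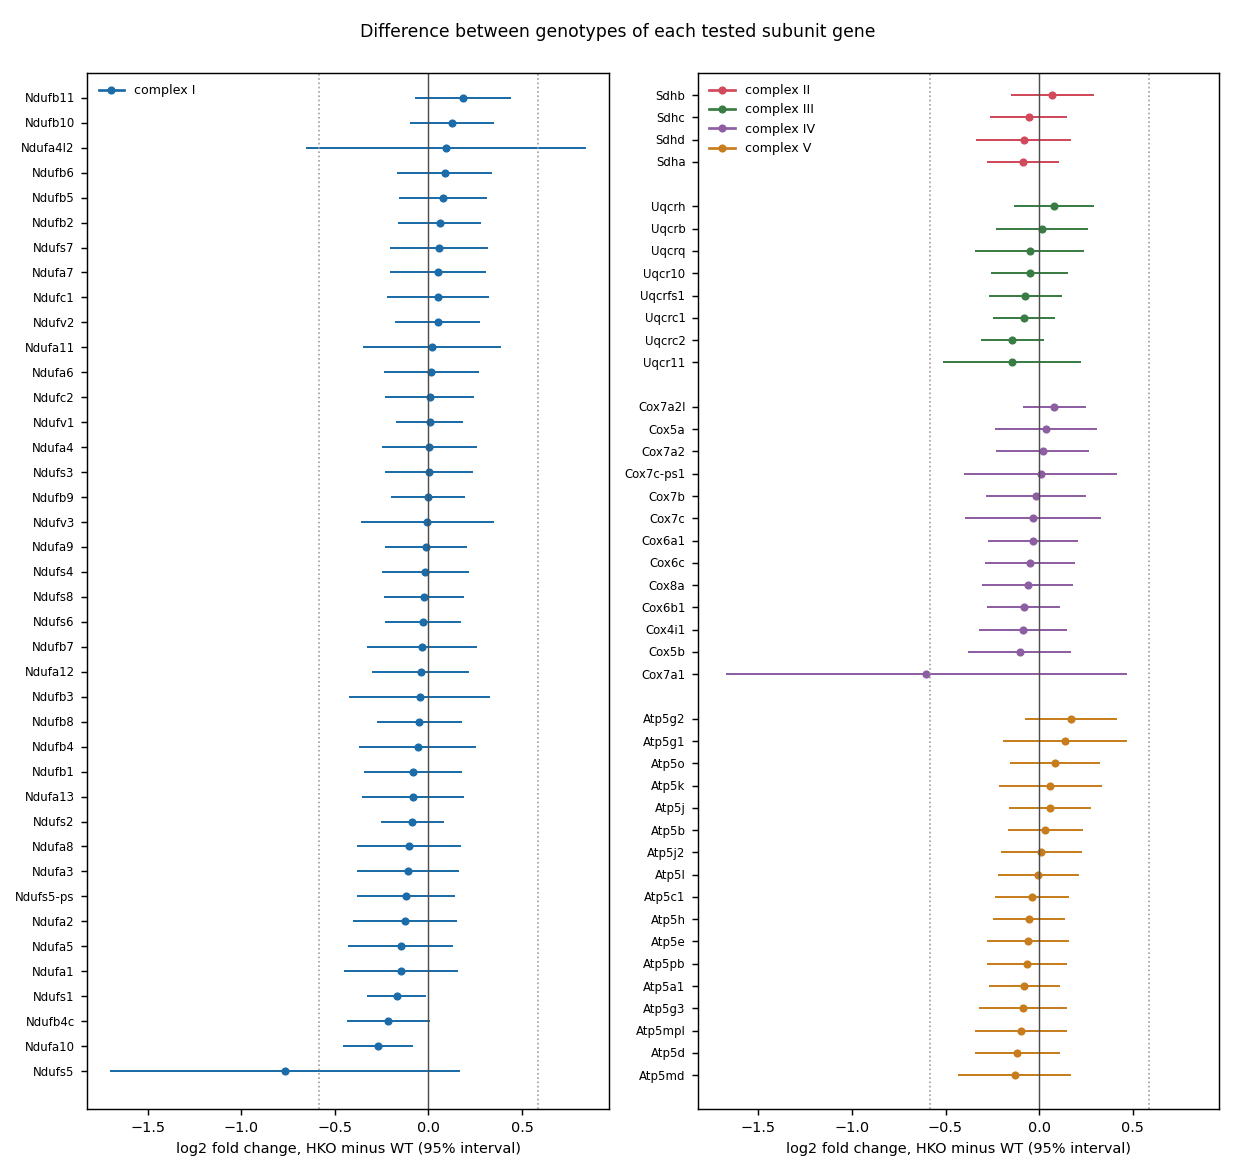
Log2 fold change of HKO against WT livers for each of the 82 tested members, with its 95% interval from edgeR, complex I on the left and complexes II to V on the right. Dotted lines mark a 1.5-fold change, and Ndufa10 and Ndufs1 are the members whose intervals lie wholly below 0.

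In complex I, 24 of the 40 tested members had a log2 fold change below 0, and none was called. The 7 nuclear core subunits, which carry the flavin, the iron-sulfur clusters and the ubiquinone site, ranged from -0.17 to 0.06 with a median of 0.00, and the 33 others ranged from -0.76 to 0.19 with a median of -0.03. The lowest unadjusted p belonged to Ndufa10, an accessory subunit of the membrane arm (chr1:92439486-92473825). It stood at 94.1, 107, 91.8 and 99.9 CPM in WT replicates 1 to 4 and at 73.3, 86.8, 79.2 and 86.5 CPM in the HKO replicates. Every HKO liver was below every WT liver. The log2 fold change was -0.27 ± 0.08 (SE), which is 17.0% lower, with an interval from -0.45 to -0.09. In edgeR its unadjusted p was 0.00696 and its adjusted p 0.0898, and the adjusted p was 0.0587 with DESeq2 and 0.0975 with limma-voom. Leaving out 1 liver at a time kept the fold change between -0.30 and -0.22, with adjusted p from 0.0756 to 0.273 in edgeR. With total count scaling it was called, with an adjusted p of 0.0363.

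Ndufs1, the largest core subunit and the carrier of several iron-sulfur clusters (chr1:63143592-63176822), stood at 151.4, 141.1, 143.3 and 138.3 CPM in the WT livers and at 130.9, 130.6, 120.8 and 127.8 CPM in the HKO livers. The genotypes did not overlap here either. The log2 fold change was -0.17 ± 0.07, or 11.2% lower, with an unadjusted p of 0.0319 and an adjusted p of 0.203 in edgeR. Ndufs1 overlaps the opposite-strand gene Ino80dos, and the use of strand in the counting is not given in the sources used here. At the other end, Ndufb11, an accessory subunit on the X chromosome, had the highest fold change of complex I. Its values were 61.3, 63.9, 47.3 and 67.4 CPM in the WT livers and 59.6, 75.7, 64.5 and 73 CPM in the HKO livers, with a log2 fold change of 0.19 ± 0.12 and an adjusted p of 0.421. The genotypes overlapped, and Ndufb11 also overlaps an opposite-strand gene, Rbm10. Ndufb8, the complex I subunit in the antibody cocktail the study used on protein, stood at 66.7, 63.3, 54.5 and 69.9 CPM in the WT livers and 52.6, 67.6, 59.3 and 66.6 CPM in the HKO livers. The fold change of HKO against WT on the log2 scale was -0.05 ± 0.10, with an interval from -0.27 to 0.18.

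In complex II, which is succinate dehydrogenase and also a step of the tricarboxylic acid cycle, all 4 genes were tested and none was called. Sdha, the flavoprotein, had the lowest fold change and the highest level per length of the complex. It stood at 508 ± 33.9 CPM in the WT livers and 479 ± 29.0 CPM in the HKO livers (SD, n = 4), with a log2 fold change of -0.08 ± 0.09 and an adjusted p of 0.658. Sdhb, the complex II subunit of the antibody cocktail, had the highest, at 122, 119, 105 and 128 CPM in the WT livers and 114, 133, 110 and 142 CPM in the HKO livers. The groups overlapped, with a log2 fold change of 0.07 ± 0.10 and an interval from -0.14 to 0.29.

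In complex III, 6 of 8 members had a log2 fold change below 0. The core proteins Uqcrc1 and Uqcrc2 and the Rieske iron-sulfur protein Uqcrfs1 were all among them, from -0.14 to -0.07. Uqcrc2, which the cocktail also reads, stood at 227, 219, 198 and 210 CPM in the WT livers and at 187, 198, 190 and 197 CPM in the HKO livers. The lowest WT liver lay at the level of the highest HKO liver, the log2 fold change was -0.14 ± 0.08, and the unadjusted p was 0.0798 and the adjusted p 0.328 in edgeR. Uqcrc2 overlaps the opposite-strand gene Pdzd9. Uqcrc1, a core protein like Uqcrc2, stood at 109 ± 4.85 CPM in the WT livers and 103 ± 6.34 in HKO livers, with a log2 fold change of -0.08 ± 0.07. Uqcr11 had the lowest fold change, -0.14 ± 0.16, with an interval from -0.51 to 0.22. Uqcrh, the hinge protein near cytochrome c, had the highest, 0.08 ± 0.10.

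In complex IV, cytochrome c oxidase, all nuclear subunits surround a core that is encoded by mitochondrial DNA. Among the 13 tested members the fold changes ran from -0.60 for Cox7a1, at 0.683 ± 0.245 CPM in the WT livers and 0.447 ± 0.252 CPM in the HKO livers, to 0.08 for Cox7a2l. Cox7a1 had at most 13 counts in a liver, its interval ran from -1.67 to 0.46, and its adjusted p was 0.557. Cox7a2l, which is known to tie complexes III and IV into supercomplexes, stood at 104, 89.5, 92.7 and 95.5 CPM in the WT livers and at 95.1, 105, 101 and 103 CPM in the HKO livers, with a log2 fold change of 0.08 ± 0.08 and an adjusted p of 0.611. Cox4i1, the largest nuclear subunit, stood at 263 ± 33 CPM in the WT livers and 248 ± 20.6 CPM in the HKO livers, with a log2 fold change of -0.09 ± 0.10.

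In complex V, the ATP synthase, 10 of 17 members had a log2 fold change below 0. The 5 genes of F1, the catalytic head with its central stalk, ranged from -0.12 (Atp5d) to 0.03 (Atp5b). The 4 genes of the peripheral stalk ranged from -0.06 to 0.08. Atp5a1, the α subunit of the head and the complex V protein of the cocktail, stood at 767, 716, 683 and 693 CPM in the WT livers and at 633, 669, 678 and 727 CPM in the HKO livers. The groups overlapped, and the log2 fold change was -0.08 ± 0.08 with an interval from -0.26 to 0.11. Atp5b, the β subunit that forms ATP, stood at 687 ± 43.8 CPM in the WT livers and 703 ± 49.1 CPM in the HKO livers. The highest fold change of the complex belonged to Atp5g2, 1 of 3 genes for the same c-ring protein, at 22.8, 23.7, 20.6 and 25.1 CPM in the WT livers and 21.7, 29.5, 25 and 27.5 CPM in the HKO livers. It was 0.17 ± 0.11, with an adjusted p of 0.451. The lowest, -0.13 ± 0.14, belonged to Atp5md, a small membrane subunit.

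All 4 nuclear subunits of the antibody cocktail thus had intervals that include 0, and these livers were taken after 3 months of diet, while the protein blots belong to a later stage.

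On the TMM-scaled CPM scale, the genotypes differed in the mean level of each complex by less than the SD among their livers. On a per-length scale they differed by more than that SD. Averaged over the 82 members, log2 CPM was 6.03, 5.99, 5.73 and 6.01 in WT replicates 1 to 4 and 5.72, 5.97, 5.90 and 5.995 in HKO replicates 1 to 4. WT replicate 3 and HKO replicate 1 were the lowest livers of their genotype. The difference between genotypes was -0.04, while the range was 0.30 among WT and 0.27 among HKO livers. By complex, the difference was -0.05 (I), -0.04 (II), -0.05 (III), -0.07 (IV) and -0.01 (V), each smaller than the SD among the livers of a genotype, which was 0.11 to 0.16. Leaving out HKO replicate 1 turned the difference over all members to 0.02, and the median over members in place of the mean turned complex IV to 0.09. On a per-length scale, log2(TPM + 1), which is not TMM-scaled, the differences were -0.19 over all members and -0.19 (I), -0.19 (II), -0.20 (III), -0.21 (IV) and -0.16 (V). These were larger than the SDs on that scale, 0.06 to 0.08 among WT and 0.12 to 0.17 among HKO livers, although the genotypes overlapped in all complexes except IV. Over all members the livers ran from 7.28 to 7.43 in WT and from 7.04 to 7.33 in HKO. The range among HKO livers was thus wider than the difference. The median over all tested genes was also shifted on that scale, by -0.12, and HKO replicate 3, with the largest share of counts in short genes that are not members, was there the lowest liver of all 5 complexes. WT replicate 3 was the lowest WT liver in all 5 complexes, and HKO replicate 1 the lowest HKO liver in 4 of the 5, with HKO replicate 3 lowest in complex II. Without both of these livers the difference over all members was -0.05, and edgeR again called 0 members.

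**Figure D2:**
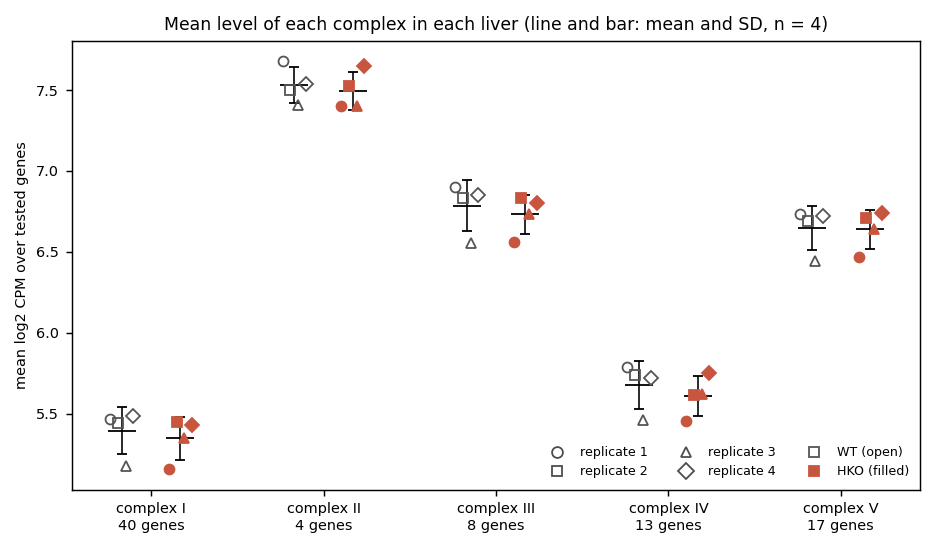
Mean log2 CPM over the tested members of each complex in each liver, WT open and HKO filled, with symbols for the replicate numbers and the mean and SD of 4 livers. WT replicate 3 and HKO replicate 1 lie below the other livers of their genotype in complexes I, III, IV and V, and the genotypes overlap in all 5 complexes.

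The low livers were low in most members. WT replicate 3 held the lowest WT value of 72 of 82 members (87.8%) and HKO replicate 1 the lowest HKO value of 73 (89.0%). Of all other tested genes these livers were the lowest of their genotype for 28.0% and 25.2%. The deviation moved with transcript length. Relative to the mean of its genotype, WT replicate 3 had a median log2 deviation of -0.23 over the 56 members under 1000 bases and -0.15 over the 25 longer members. Genes that are not members showed -0.18 in WT replicate 3 for 872 genes under 1000 bases and 0.02 for 11299 longer genes. In HKO replicate 1 the values were -0.19 and -0.13 for the short and long members and -0.13 and 0.02 for the short and long other genes. The median transcript length was 732 bases for members and 2823 bases for all genes. The part of transcript length in the low values of these livers was not tested, and the long members were also below the long other genes in both. The median log2 fold change between genotypes was -0.03 in the short and -0.05 in the long members.

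**Figure D3:**
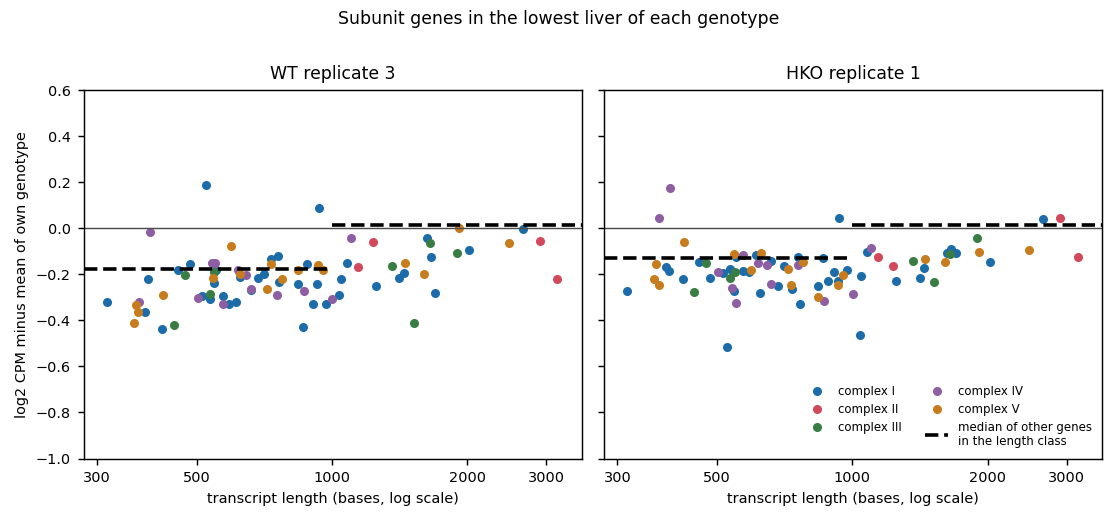
Deviation of each member's log2 CPM from the mean of its own genotype in WT replicate 3 (left) and HKO replicate 1 (right), against transcript length on a log scale and colored by complex. Dashed lines are the medians of genes that are not members, under 1000 bases and longer, at -0.18 and 0.02 (left) and -0.13 and 0.02 (right).

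Facts of the libraries that touch these values are as follows. The livers had 12174339 to 18735785 counts, and 3 counts, the level below which no difference was read, corresponded to 0.149 to 0.255 CPM. Genes under 1000 bases that are not members took 6.06% to 8.24% of the counts in WT and 7.42% to 15.1% in HKO livers, with the highest share in HKO replicate 3. All 8 hepatocyte markers were abundant, with a sum of 91154 to 123094 CPM in the WT livers and 82914 to 136193 CPM in the HKO livers, and 4 of the 8 (Cps1, Ass1, Hnf4a and Serpina1c) were called higher in HKO livers. Markers of skeletal muscle, where the alternative isoforms of complex IV are known, summed over the 3 of 8 listed genes to 0.197 to 0.413 CPM in the WT livers and 0.405 to 0.849 CPM in the HKO livers. The 3 listed adipocyte markers summed to at most 3.78 CPM, in HKO replicate 1, and to at most 0.0698 CPM in WT livers. The 4 cholangiocyte markers summed to 6.17 to 8.94 CPM in the WT livers and 6.75 to 44.6 CPM in the HKO livers. Markers of Kupffer cells, sinusoidal endothelium and stellate cells had 0 calls among 12 genes and overlapping sums. The sums for endothelium were the highest of their genotype in the livers with low members, 111 CPM in WT replicate 3 and 130.8 CPM in HKO replicate 1. In the same livers the Kupffer sums were 172.8 CPM (WT 65.1 to 173.5) and 157.5 CPM (HKO 50.6 to 165.7). The stellate sums were 406.5 CPM (WT 359.4 to 453.0) and 448.2 CPM (HKO 316.9 to 448.2). The part of cell composition in the members' values was not tested. In bulk liver, fewer cells of a type and less RNA per cell cannot be told apart. Abca1 stood at 298 ± 18.6 CPM in the WT livers and 412 ± 47.5 CPM in the HKO livers (SD, n = 4; adjusted p of 0.0182 in edgeR), and Srebf2, the host gene of miR-33, at 15.5 ± 3.73 and 11.9 ± 1.75 CPM (adjusted p of 0.248). The Mir33 locus was not analysed here, and the genotype of each liver was taken from its labels.

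Levels between genes were compared as TPM, counts per transcript length scaled to the same total in each liver. Over the 81 tested members with a length the median was 163 TPM, against 10.6 TPM over all tested genes, and 60 of the 81 stood above 100 TPM. All members together took 0.885% ± 0.037 of the counts in WT and 0.814% ± 0.061 in HKO livers (SD, n = 4). Median levels ran from complex I (113 TPM) over complexes II (240) and III (245) to IV (303) and V (309). Within complexes III and II the highest and lowest member were within 5.18-fold and 4.62-fold of each other, in complex V within 10.9-fold. Complexes I and IV had wider ranges, 470-fold and 233-fold, with Ndufa4l2 and Cox7a1 as the lowest members. The next lowest were Ndufs5 (12.1 TPM) and Cox7c (20.4 TPM), whose counts are divided with a copy. The most abundant members per length were Ndufa4 in complex I (846 TPM, range 682 to 962 over 8 livers), Sdha in complex II (346, 263 to 396), Uqcrb in complex III (678, 582 to 740), Cox4i1 in complex IV (687, 561 to 794) and Atp5b in complex V (736, 636 to 839). The ranges of Ndufa4, Atp5b, Cox4i1 and Uqcrb overlapped, so their order is not fixed by these livers. Ndufa4 was assigned to complex I by its symbol, although its protein is now counted as a subunit of complex IV. The least abundant were Ndufa4l2 (1.80 TPM), Sdhc (75.0), Uqcrc1 (130.9), Cox7a1 (2.95) and Atp5g2 (67.8).

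**Figure D4:**
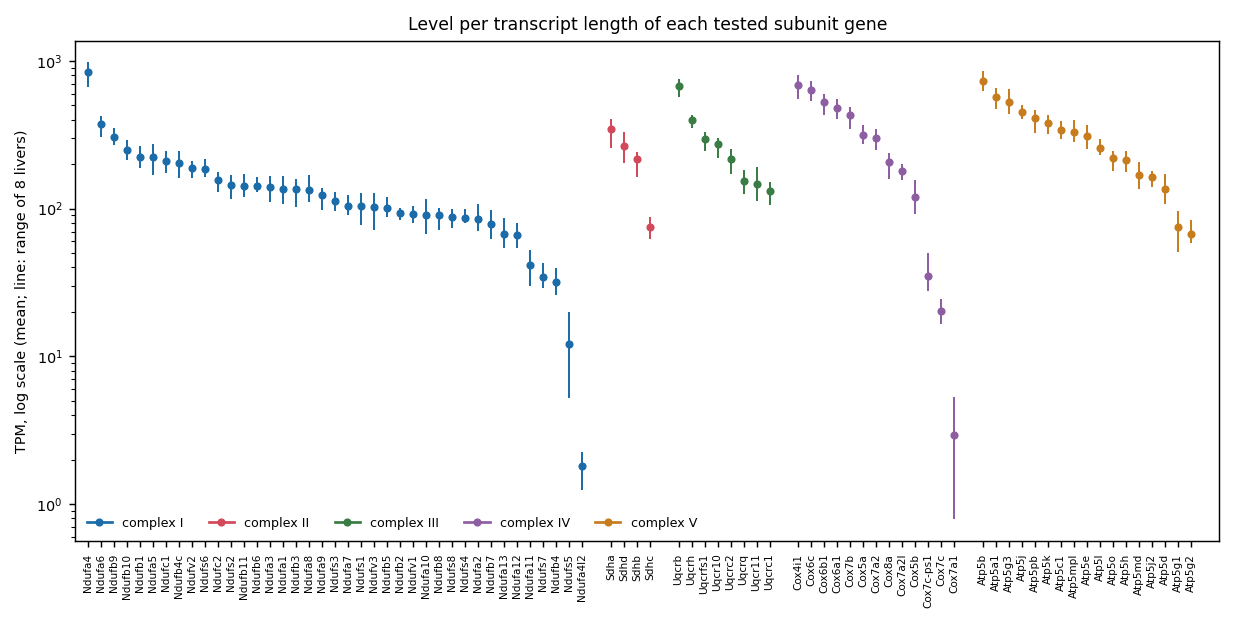
TPM on a log scale of the 81 tested members with a transcript length, ordered within each complex, with the mean as a point and the range over the 8 livers as a line. 60 of the 81 members lie above 100 TPM, Ndufa4 is highest at 846 TPM, and Ndufs5, Cox7c, Cox7c-ps1 and the alternative isoforms Ndufa4l2 and Cox7a1 are among the lowest.

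Several complex IV subunits have a second gene known from muscle, lung or testis, and in these livers the broadly expressed form held nearly all of the level. Cox4i1 made up 99.98% of the summed level of its pair per length, with Cox4i2 at 0 to 2 counts in a liver. Cox6a2 had at most 2 counts, Cox6b2 at most 5 and Cox8b at most 1 count in any liver, and none of these 4 passed the filter. In 8 livers Cox4i2 and Cox6b2 had a count in 3, and Cox6a2 and Cox8b in 1, so their levels were at or under the floor of 3 counts in all livers but 1. Cox7a1, the heart and muscle form, took 0.599% ± 0.265 of the summed level of its family (SD, n = 8), Cox7a2 took 62.1% ± 2.52 and Cox7a2l 37.3% ± 2.54. Ndufa4l2, a paralog of Ndufa4 known as a hypoxia-responsive gene, took 0.214% ± 0.048 of the pair and overlaps the opposite-strand gene Shmt2. Of the 3 genes for the c-ring protein of ATP synthase, Atp5g3 took 80.0% ± 1.72 in WT and 77.4% ± 1.95 in HKO livers, Atp5g1 10.5% ± 1.37 and 11.7% ± 1.72, and Atp5g2 9.48% ± 0.817 and 10.8% ± 0.383 (SD, n = 4). The fold changes of the 3 were -0.08, 0.14 and 0.17, none of them called. Ndufa11b, a pseudogene, was the fifth member not tested, with at most 4 counts in a liver.

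The list holds 3 members with a copy that shares their reads, so their separate values are uncertain. For Ndufs5 (chr4:123712710-123718186), a subunit of complex I, 2.69% to 8.51% of the pair's counts were assigned to the gene and the rest to Ndufs5-ps (chr16:42955580-42956079), a transcribed pseudogene that lies within Zbtb20 on the same strand. Ndufs5 alone had the lowest fold change of all members, -0.76 ± 0.42, at 5.04, 4.12, 4.18 and 2.04 CPM in the WT livers and 1.3496, 4.63, 1.58 and 1.53 CPM in the HKO livers. HKO replicate 2 stood with the WT livers and WT replicate 4 with the HKO livers, and the adjusted p was 0.361 in edgeR. Without HKO replicate 2 it was -1.36 with an adjusted p of 0.0402, the only call of a member in the 8 fits that left out 1 liver. The pair summed to 71.1, 64.6, 49.0 and 66.9 CPM in the WT livers and 50.1, 63.7, 55.9 and 56.6 CPM in the HKO livers, with a log2 fold change of -0.15 ± 0.12 and an adjusted p of 0.530. The difference of the sum was smaller than that of Ndufs5 alone, and the share assigned to Ndufs5 was 6.26% ± 2.29 in WT and 3.89% ± 2.24 in HKO livers (SD, n = 4).

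Ndufb4 (chr16:37647602-37654368) received 25.5% to 30.4% of the counts it shares with Ndufb4c (chr15:73809449-73809933). Each of the 360 words of 31 bases in the annotated Ndufb4c transcript also occurs in a transcript of Ndufb4, so reads within it cannot be told apart by sequence. Ndufb4c alone had a log2 fold change of -0.21 ± 0.10 and Ndufb4 alone of -0.06 ± 0.14, and their sum of -0.17 ± 0.10 with an adjusted p of 0.405. Cox7c (chr13:86044798-86046795) and Cox7c-ps1 (chr17:25901808-25902153) divided their counts at 37.6% to 51.5% for the gene and summed to 9.95 to 13.7 CPM. Cox7c alone stood at 20.4 TPM, place 12 of 13 in complex IV, and the pair's log2 fold change was -0.01 ± 0.13. The counts of this pair did not add to a whole number, as with 64.98 and 66.63 in WT replicate 1. Whether reads were also split with places outside the pair was not looked up. The level of Cox7c and the pair's sum may therefore be too low. Cox7c-ps1 overlaps Rab40c on the opposite strand. In all, 13 members overlap another listed gene, 12 of them on the opposite strand, and 12 members had a count more than 0.1 from a whole number in at least 1 liver.

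**Figure D5:**
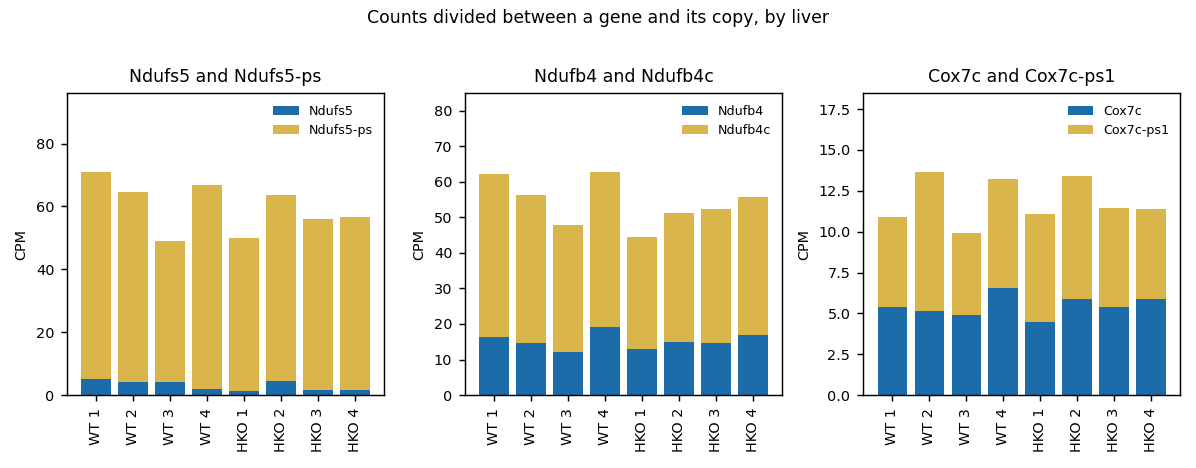
CPM of 3 members (blue) and of the copy that shares their reads (yellow), stacked by liver on axes that start at 0. Ndufs5 takes 2.69% to 8.51%, Ndufb4 25.5% to 30.4% and Cox7c 37.6% to 51.5% of the pair.

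Genes that build or feed the complexes were read from a list of assembly factors, electron carriers and subunits outside the name rule. Of its 54 symbols 52 were listed, and all 52 were tested. The symbols not listed were Pet117 and Usmg5. Other names of these genes were not looked up, so either may be listed, or counted among the members, under another symbol. In edgeR 2 were called lower and 0 higher, and at an unadjusted p under 0.05 there were 5 lower and 2 higher. Over all tested genes the shares were 3.44% and 1.71% called, and 10.6% and 8.99% at the unadjusted threshold, so the list's counts were near the background for lower genes. DESeq2 called 3 lower and 1 higher, where it called 5.07% and 3.11% of all genes, and limma-voom 1 lower and 0 higher, where it called 3.25% and 1.61%. The median log2 fold change was -0.10, with 43 of 52 below 0, against 0.01 and 5995 of 12395 over all tested genes. Etfdh, which passes electrons from fatty acid oxidation to ubiquinone beside complexes I and II, fell. It stood at 395, 403, 388 and 381 CPM in the WT livers and 283, 290, 304 and 305 CPM in the HKO livers, every HKO liver being lower. The log2 fold change was -0.41 ± 0.07, or 24.6% lower, with an adjusted p of 0.0101 in edgeR, 3.09e-08 in DESeq2 and 0.00877 in limma-voom, and it was called in 7 of the 8 fits that left out 1 liver. The adjusted p without WT replicate 2 was 0.0514. Acad9, an acyl-CoA dehydrogenase that also assembles complex I, stood at 49.5, 57, 49.7 and 50.7 CPM in the WT livers and 45.4, 42.7, 36.3 and 36.6 CPM in the HKO livers. The genotypes did not overlap, and the log2 fold change was -0.36 ± 0.09 with an adjusted p of 0.0478 in edgeR, 0.0212 in DESeq2 and 0.0545 in limma-voom. Only 1 of the 8 fits that left out a liver called it, with adjusted p from 0.0296 to 0.163. DESeq2 also called Cox19, a copper chaperone factor of complex IV (-0.46 ± 0.12 in edgeR, adjusted p of 0.0520), lower and Ndufaf6, an assembly factor of complex I (0.60 ± 0.17, adjusted p of 0.0656), higher. Cytochrome c (Cycs) stood at 293 ± 29.3 CPM in the WT livers and 274 ± 24.5 CPM in the HKO livers (SD, n = 4).

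Among 15 genes that regulate the nuclear genes or maintain and express mitochondrial DNA, 13 had a fold change above 0, with a median of 0.13. Of the 15, edgeR called 1 higher and 0 lower. At an unadjusted p under 0.05 there were 2 higher and 0 lower. Over all tested genes 1.71% were called higher and 8.99% were higher at the unadjusted threshold, and 6400 of 12395 lay above 0. With 15 genes a single call is a large share, and nothing was read from the count. The called gene was Tfb1m, a methyltransferase of mitochondrial ribosomal RNA, at 8.598, 7.33, 7.96 and 7.30 CPM in the WT livers and 9.65, 11.9, 10.3 and 11.7 CPM in the HKO livers. The genotypes did not overlap, and the log2 fold change was 0.48 ± 0.13 with an adjusted p of 0.0469 in edgeR, 0.0247 in DESeq2 and 0.0506 in limma-voom. Of the 8 fits that left out 1 liver 1 called it, with adjusted p from 0.0442 to 0.141. Ppargc1a stood at 21.7, 21.5, 20.5 and 19.8 CPM in the WT livers and 18.1, 20.4, 16.4 and 34.6 CPM in the HKO livers. The other HKO livers lay around or below the WT values, and HKO replicate 4 above all of them. Its log2 fold change of 0.09 ± 0.21 became -0.19 without that liver, and was -0.00 with total count scaling. Tfam, which packages mitochondrial DNA, stood at 66.4 ± 5.14 CPM in the WT livers and 60.98 ± 2.82 CPM in the HKO livers, with a log2 fold change of -0.12 ± 0.08. Nrf1, Gabpa and Esrra, whose binding letters were counted above, had log2 fold changes of 0.15 ± 0.16, 0.07 ± 0.07 and -0.05 ± 0.15, none of them called. The sign for Gabpa turned with total count scaling, and that for Esrra without some livers. Gabpa and the member Atp5j overlap on opposite strands.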

How the data were processed

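Liver RNA of 4 WT and 4 HKO mice was read from the deposited table. The authors deposited estimated counts per gene for 17810 genes, made with STAR and Partek's expectation-maximization quantification and not normalized; versions, build and strand setting are not given in the sources used here. Reads matching several genes are split by this method, and 91.8% of the values lie within 0.1 of a whole number. The labels name both a small RNA library kit and rRNA depletion, and the libraries' order numbers run by genotype, so order and genotype cannot be told apart. Group and replicate number came from the labels, the titles giving each library its own mouse number. The descriptions of the 4 WT livers all begin with 1 mouse number, so that these are different mice rests on the titles.

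Estimated counts were rounded. The main test was the quasi-likelihood test of edgeR 4.0.16 in R 4.3.3 (TMM scaling, default filter with a minimum count of 10, robust dispersions) on 12395 genes, with Benjamini-Hochberg adjustment over all of them and a threshold of 0.05. Standard errors and 95% intervals come from this fit. CPM use TMM-scaled totals, and log2 CPM add a prior count of 2. The floor of 3 counts covers counting error only. DESeq2 1.42.0, limma-voom (limma 3.58.1), other scalings and filters, a replicate block and each liver left out were alternatives. Leaving out WT replicate 3 and HKO replicate 1 together and summing copies were chosen after seeing the data. The default edgeR, DESeq2 and limma-voom fits were run on simulated counts with planted changes, each larger than the difference of any member. The other alternatives were not run on simulated counts.

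All 87 members matched RefSeq symbols, and 82 had the RefSeq start or end of GRCm38.p6, whose coordinates are given. Transcript lengths are medians over RefSeq-linked GENCODE vM21 transcripts within 100 bases of the listed gene, known for 86 members. Python 3.11.15, numpy 2.4.6, pandas 2.3.3, scipy 1.17.1 and matplotlib 3.10.9 were used. Genes were named for the lowest and highest fold change, the 2 lowest p and the highest and lowest level per length in each complex, the antibody cocktail, isoform families, members not tested, and called genes and 5 fixed regulators of the related lists. Genes that share reads, DESeq2 calls of the related lists, seed matches and promoters were added after their values were seen. The members and lists were chosen with earlier results of these data known. No label ties same-numbered livers to each other, and no pairing was used.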

Additional observations from a re-analysis of the deposited data

Results flagged for a closer look

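Among 96 groups of 4 livers, 8 held a value set apart from the rest of its group by a gap beyond the 95% limit, and about 1 in 20 groups does so by chance (4.8 of 96). Of these, 3 are means over members in WT replicate 3, with a mean log2 CPM of 5.73 over all members (others 5.99 to 6.03), 5.18 over complex I (others 5.44 to 5.49) and 6.44 over complex V (others 6.69 to 6.74). In the same liver Cox4i1 stood at 214 CPM (others 276 to 285) and Cox7a2 at 81.1 CPM (others 103 to 105), and these 5 values share their genes. Acad9 stood at 57 CPM in WT replicate 2 (others 49.5 to 50.7). Ndufs5 stood at 4.63 CPM in HKO replicate 2 (others 1.3496 to 1.58), a gene whose counts are divided with its copy. The share of counts in genes under 1000 bases that are not members was 15.1% in HKO replicate 3 (others 7.42% to 8.02%).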

How the results depend on the processing

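The count of members called lower, 0 in the main test, was 1 with total count scaling (Ndufa10, adjusted p of 0.0363), 0 to 1 when 1 liver was left out (Ndufs5 without HKO replicate 2) and 2 at an unadjusted p under 0.05. It was 0 under every other alternative run, and the count called higher was 0 under all of them. Assembly and carrier genes called lower, 2 in the main test, were 1 with limma-voom, RLE scaling and the replicate block, 3 with DESeq2, total count scaling, no filter on low counts, a stricter filter (10 counts in each liver) and both low livers left out, 0 to 2 with 1 liver left out and 5 at an unadjusted p, and those called higher, 0 in the main test, were 1 with DESeq2 and 2 at an unadjusted p. The replicate block left 0 members called, with a lowest adjusted p of 0.107, and 315 lower calls over all genes against 426. Same-numbered livers share only a number: their deviations from the group means correlated over genes at -0.15 to 0.01, and 0 of 8 livers correlated best with the liver of its own number. The difference between genotypes in the mean level, -0.04 over all members, was -0.189 on a per-length scale (log2 of TPM + 1), where the median over all tested genes was -0.12. By complex the per-length values were -0.192 (I), -0.188 (II), -0.203 (III), -0.208 (IV) and -0.159 (V), and complex IV was 0.0887 with the median over members. With 1 liver left out the means ranged from -0.112 to 0.0164 over all members. Signs turned with total count scaling for Sdhb (-0.0123), Uqcrh (-0.00342), Cox7a2l (-0.0039), Ppargc1a (-0.000989) and Gabpa (-0.0146), and without both low livers for Esrra (0.0995). Total count scaling put 76 of 82 members below 0, against 52, and moved the median of all genes from 0.01 to -0.08. With 1 liver left out, Ndufb8 ranged from -0.116 to 0.0205, Ppargc1a from -0.191 to 0.219 and Esrra from -0.127 to 0.0526. Among all genes called, 154 to 371 were lower with 1 liver left out, against 426, with the lowest count without WT replicate 2, and 629 with DESeq2. The causes were not tested. With 4 livers a genotype, the interval of the difference in the main test lay within a 1.25-fold change either way for 48 of 82 members. The intervals of all tested members except Ndufa10 and Ndufs1 included 0, so their differences could not be told from none. Neither Ndufa10 nor Ndufs1 was called in the main test.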
